A study of Mus musculus with 13 samples.

Results

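The 46 genes described here encode proteins that carry out mitosis and cell division. They were chosen by gene symbol, with earlier results of these data known. They comprised cyclins and kinases that start mitosis, proteins of the kinetochore, spindle and cleavage furrow, condensins and other chromosome proteins, and 2 transcription factors. All 46 were among the 20270 genes of the count table, and all 46 were among the 15315 genes left by the filter on low counts. For this account they were sorted by the role of the protein into 11 groups.

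Mitosis begins when the kinase Cdk1, bound to a cyclin of the A or B type, drives chromosome condensation and spindle assembly. The spindle checkpoint then holds cells in metaphase until each kinetochore is attached, after which the anaphase-promoting complex (APC/C) marks the cyclins for destruction and the cell divides. Transcripts of these genes accumulate in the late phases of the cell cycle and are low in resting cells, so that in adult lung, where few cells divide, they are used as markers of proliferation.

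Lung RNA of 13 libraries, each taken as a separate mouse, came from mice of the C57BL/6J background. The wildtype mice of the study were males obtained at 13 weeks of age. The Control group held 4 wildtype mice without bleomycin, and by the study's methods its control groups received the saline vehicle. The WT bleomycin group held 5 wildtype mice 14 days after a single oropharyngeal dose of bleomycin. Bleomycin is a drug that breaks DNA and induces lung injury and fibrosis. The CB1R KO bleomycin group held 4 mice that lacked Cnr1, the gene of the cannabinoid receptor CB1R, in every tissue, and they had received the same dose 14 days earlier. No CB1R KO mice without bleomycin were analysed here, so an effect of the genotype before injury cannot be told apart from an effect on the response. Libraries are named below by the number in their labels, and values are given in the order 3, 21, 24 and 26 for Control, 4, 2, 5, 4-B2 and 7 for WT bleomycin, and 8, 9, 10 and 11 for CB1R KO bleomycin.

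Of the 13 libraries, 12 held between 14615904 and 16662580 estimated counts, and CB1R KO library 11 held 53463884. Cnr1 was counted in every library, at 1.62 to 4.10 CPM (estimated counts scaled to a common library size) in Control, 3.46 to 6.97 in WT bleomycin and 2.47 to 5.63 in the libraries labelled CB1R KO (log2 fold change -0.53 ± 0.28 between the last groups, edgeR adjusted p = 0.367), so its level did not check the genotype and the direction of that comparison rests on the labels. The 7 marker genes of type II cells, surfactant genes among them, were counted in every library and summed to 11706 to 22296 CPM. None of the 598 values of the 46 genes was 0. The lowest estimated count of any of them was 7 in a Control library, 53 in a WT bleomycin library and 39 in a CB1R KO library, so that the Control values of the lowest genes carried the largest counting error.

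All 46 genes rose from Control to WT bleomycin lungs at an adjusted p under 0.05, against 25.0% of all genes tested that were higher by the same test. The log2 fold changes ran from 1.12 for Cenpa to 3.27 for Ccnb1, with a median of 2.39 (5.25-fold), where the median over all genes tested was -0.01. The change was over 2-fold for all 46 genes, over 4-fold for 35, and over 8-fold for 3, whereas 2.59% of all genes tested rose over 4-fold. In each of the 46 genes every WT bleomycin library was above every Control library, an order found for 21.5% of all genes tested. Among the libraries with labels in lower case (3 Control and 3 WT bleomycin), the median was 2.38. In RNA of whole tissue, more cells in division and more RNA per cell cannot be told apart.

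Summed over the 46 genes, the level was 219 ± 39.0 CPM in Control (SD, n = 4), 1062 ± 159 CPM in WT bleomycin (SD, n = 5) and 935 ± 417 CPM in CB1R KO bleomycin (SD, n = 4). In TPM, a unit scaled for transcript length in which genes can be compared with each other, the sums were 115 ± 18.2, 568 ± 92.9 and 509.8 ± 238. The order of the genes by TPM depended on the group. In Control, Racgap1 stood highest at 6.14 ± 0.597 TPM, followed by Ncapd2 at 6.09 ± 1.14 and Ube2c at 6.04 ± 1.56, while Cdk1 was at 3.47 ± 0.694. In WT bleomycin, Ube2c stood highest at 34.8 ± 5.69 TPM, followed by Cdk1 at 28.9 ± 6.48 and Cdc20 at 25.9 ± 4.16, and in CB1R KO bleomycin Ube2c and Cdc20 were highest, at 32.8 ± 15.4 and 26.3 ± 14.3 TPM. The ranges of these genes over the libraries overlapped within each group except for that of Cdk1 in Control. Aspm, Ttk and Cenpe were the 3 lowest genes in each group, with means of 0.319 to 0.552 TPM in Control and 2.37 to 3.36 TPM in WT bleomycin.

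**Figure D1:**
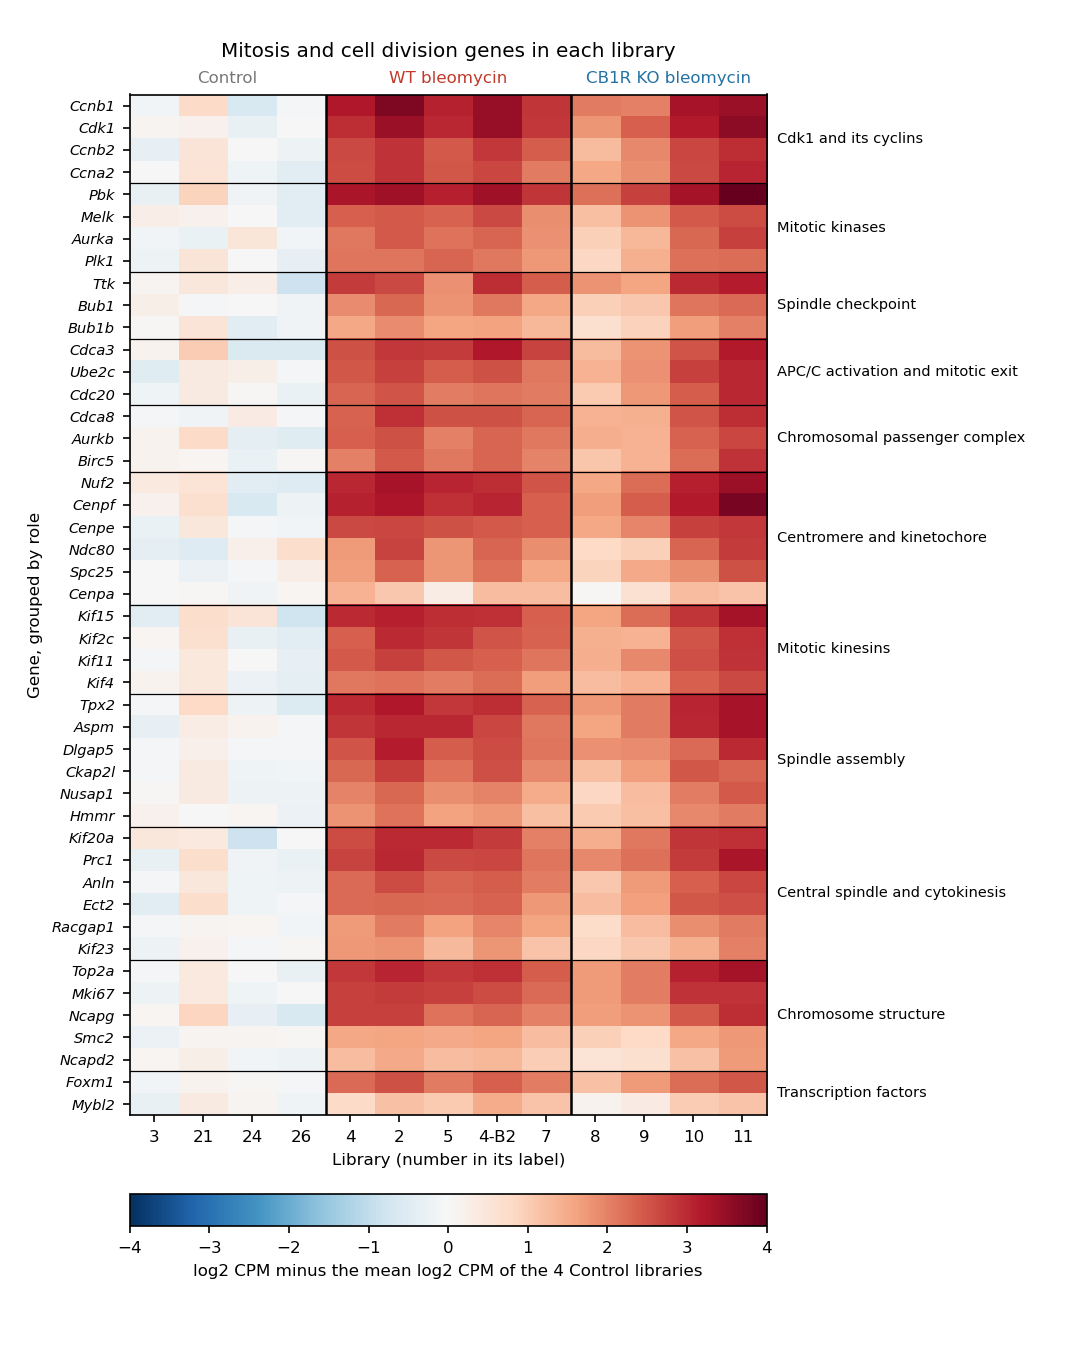
Heat map of the 46 genes (rows, grouped by role) in the 13 libraries (columns, by the number in the label). Colour gives log2 CPM minus the mean of the 4 Control libraries; the 5 WT bleomycin columns are above 0 in every row, while among the CB1R KO columns 8 and 9 are paler than 10 and 11.

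The promoters of these genes have sequence in common that the choice by name did not use. Many genes of late cell cycle phases carry the cell cycle genes homology region (CHR), whose core reads TTTGAA, or less often TTTAAA, close to the start of transcription, with CCAAT boxes upstream of it. The CHR is known as the binding site of the MuvB complex, to which the transcription factors Mybl2 and Foxm1 can join. Both motifs were searched on both strands in the RefSeq promoter sequences of the GRCm38.p6 build, which span 250 bases before to 50 bases after each start. Of the 46 genes, 39 had such a sequence, 2 of them more than 1, in which case a match in any counted. The other 7 were Aurkb, Ccna2, Dlgap5, Foxm1, Kif20a, Pbk and Tpx2.

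TTTGAA was found in 31 of the 39 genes (79.5%), against 20.2% of all 27025 genes in the table. TTTGAA or TTTAAA was found in 34 of the 39 (87.2%), against 30.6%, and neither was in the window of Bub1, Melk, Mybl2, Nuf2 and Nusap1. CCAAT was found in 30 of the 39 (76.9%), against 41.1%, and 27 held both TTTGAA and CCAAT, against 8.97% of all genes. Between 50 bases before and 50 after the start, TTTGAA was found in 28 of the 39 genes (71.8%), against 5.72%. These shares are descriptions of the sequence and no test of binding was made.

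The promoters of Ccnb2, Cdk1, Plk1 and Cdc20 are shown from 100 bases before to 30 after the start, as examples in genes that rose over 4-fold with the CCAAT box and the CHR core in different orders. Capitals mark the CHR core in either spelling and the CCAAT box, which reads ATTGG where it lies on the other strand.
Ccnb2: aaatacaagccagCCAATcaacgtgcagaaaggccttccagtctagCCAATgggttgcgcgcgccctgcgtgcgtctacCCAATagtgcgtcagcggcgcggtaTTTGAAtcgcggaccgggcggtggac
Cdk1: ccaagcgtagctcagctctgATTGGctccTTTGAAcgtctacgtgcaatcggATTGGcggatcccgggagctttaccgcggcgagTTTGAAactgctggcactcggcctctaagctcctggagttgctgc
Plk1: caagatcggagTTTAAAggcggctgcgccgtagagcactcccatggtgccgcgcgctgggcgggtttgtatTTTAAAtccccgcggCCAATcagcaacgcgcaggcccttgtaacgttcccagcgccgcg
Cdc20: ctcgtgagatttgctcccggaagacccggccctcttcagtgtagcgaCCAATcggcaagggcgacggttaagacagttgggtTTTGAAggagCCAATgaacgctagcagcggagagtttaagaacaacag
These lie in GRCm38.p6 at chr9:70421525-70421654 on the minus strand (Ccnb2), chr10:69352883-69353012 on the minus strand (Cdk1), chr7:122159335-122159464 on the plus strand (Plk1) and chr4:118437314-118437443 on the minus strand (Cdc20), and each is written 5′ to 3′ on the strand of its gene. In Ccnb2, CCAAT stood at -87, -54 and -21 from the start and TTTGAA at 5, counting the start as 1. In Cdk1, TTTGAA stood at -71 and -15, with ATTGG at -80 and -48. In Plk1, TTTAAA stood at -89 and -29 with CCAAT at -14, downstream of both, and in Cdc20, CCAAT stood at -53 and -8 with TTTGAA at -18.

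**Figure D2:**
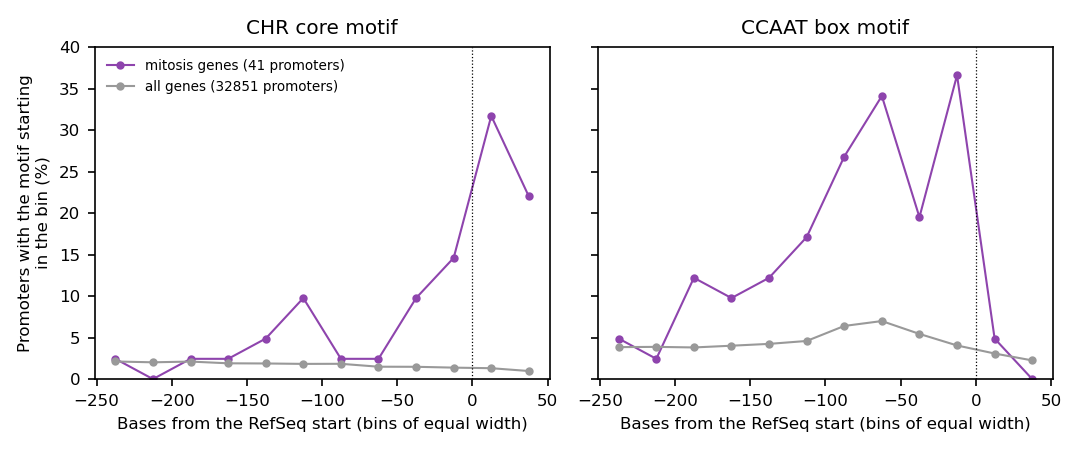
Share of promoters (y axis, percent) with TTTGAA, the CHR core (left), or CCAAT (right) beginning in each 25-base bin from 250 bases before to 50 after the RefSeq start (x axis), for the 41 promoters of the mitosis genes and all 32851 promoters. TTTGAA is most frequent from the start to 25 bases after it (31.7% against 1.31%) and CCAAT in the 25 bases before the start (36.6% against 4.05%).

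The 4 genes of Cdk1 and its cyclins, which trigger entry into mitosis, rose by a median log2 fold change of 2.93 in WT bleomycin. Cdk1, the kinase itself, measured 2.67, 2.82, 1.99 and 2.51 CPM in Control, 20.0, 28.0, 20.8, 28.7 and 18.3 in WT bleomycin and 8.76, 13.6, 23.3 and 30.6 in CB1R KO bleomycin. Ccnb1, which encodes cyclin B1, the partner of Cdk1 in mitosis, measured 1.78, 3.36, 1.22 and 1.87 CPM in Control, 18.4, 27.1, 17.1, 22.7 and 14.7 in WT bleomycin and 8.57, 8.14, 19.7 and 22.2 in CB1R KO bleomycin. In both genes all 5 WT bleomycin libraries lay above the Control range with a wide gap, and the CB1R KO libraries 8 and 9 fell between the Control and WT ranges. Relative to Control, Ccnb1 rose in WT bleomycin by 3.27 ± 0.37 (log2 fold change ± SE, adjusted p = 7.49e-06) and Cdk1 by 3.21 ± 0.33 (adjusted p = 3.31e-06), the largest changes of the 46 genes. Ccnb2, the second B-type cyclin, rose by 2.66 and Ccna2, cyclin A2, which acts in S phase and early mitosis, by 2.54.

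Among the mitotic kinases, Pbk, a kinase of dividing cells, measured 1.01, 2.46, 1.15 and 0.902 CPM in Control, 13.2, 14.5, 11.9, 14.5 and 9.87 in WT bleomycin and 6.21, 9.05, 13.7 and 25.1 in CB1R KO bleomycin. Control library 21 was above the other 3 Control libraries, and CB1R KO library 11 was above every other library. Pbk rose by 3.20 ± 0.41 in WT bleomycin (adjusted p = 2.11e-05). Plk1, which acts at centrosomes, kinetochores and the midbody, rose by 2.09, Aurka, which matures centrosomes and builds the spindle, by 2.21, and Melk by 2.39.

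The spindle checkpoint genes rose by a median of 1.97. Bub1b, whose product BubR1 is part of the complex that inhibits the APC/C, measured 9.69, 13.6, 6.92 and 8.50 CPM in Control, 27.9, 34.9, 28.2, 28.9 and 23.9 in WT bleomycin and 14.6, 17.9, 30.2 and 37.9 in CB1R KO bleomycin. Its highest Control library, at 13.6 CPM, stayed below the lowest WT bleomycin library, and CB1R KO library 8 was closest to Control. Bub1b rose by 1.57 ± 0.26, while Bub1, a checkpoint kinase at the kinetochore, rose by 1.97 and Ttk (Mps1), the kinase that starts checkpoint signalling, by 2.62.

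Of the genes of APC/C activation and mitotic exit, Ube2c, the ubiquitin-conjugating enzyme of the APC/C, measured 2.32, 4.21, 3.84 and 3.09 CPM in Control, 19.1, 22.2, 17.9, 19.7 and 14.6 in WT bleomycin and 8.76, 11.8, 22.4 and 27.0 in CB1R KO bleomycin. Cdc20, the APC/C activator that the checkpoint restrains, measured 5.41, 7.81, 6.28 and 5.03 CPM in Control, 30.5, 34.8, 25.5, 27.3 and 26.1 in WT bleomycin and 12.5, 20.4, 32.7 and 49.2 in CB1R KO bleomycin. In both genes CB1R KO libraries 8 and 9 were below every WT bleomycin library, and library 11 was above every one. Ube2c rose by 2.47 ± 0.31 in WT bleomycin, Cdc20 by 2.23 ± 0.32, and Cdca3, which takes part in the destruction of the mitosis inhibitor Wee1, by 2.72.

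The chromosomal passenger complex corrects attachment of chromosomes to the spindle and later guides cytokinesis. Its subunit Birc5 (survivin) measured 3.74, 3.61, 2.82 and 3.48 CPM in Control, 14.2, 19.0, 14.9, 17.5 and 13.7 in WT bleomycin and 7.46, 8.99, 16.5 and 25.8 in CB1R KO bleomycin. Birc5 rose by 2.21 ± 0.32 in WT bleomycin, with no overlap with Control, and the other members of the complex measured here, the kinase Aurkb and the subunit Cdca8 (borealin), rose by 2.24 and 2.60.

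The 6 genes of the centromere and kinetochore had the widest range of changes among the 11 roles, with log2 fold changes from 1.12 to 2.97. Spc25, a subunit of the Ndc80 complex that binds spindle microtubules, measured 3.21, 2.70, 3.07 and 3.80 CPM in Control, 10.4, 16.6, 11.1, 14.9 and 9.44 in WT bleomycin and 5.95, 9.23, 11.7 and 19.3 in CB1R KO bleomycin. Cenpa, the histone H3 variant that marks the centromere, measured 2.73, 2.82, 2.50 and 2.90 CPM in Control, 7.41, 5.93, 3.37, 6.58 and 6.54 in WT bleomycin and 2.81, 4.22, 6.65 and 6.22 in CB1R KO bleomycin. For Cenpa the lowest WT bleomycin library, 5, was only just above the highest Control library, and CB1R KO library 8 was within the Control range. Cenpa had the smallest change of the 46 genes, 1.12 ± 0.26 (adjusted p = 0.00275), and Spc25 rose by 1.96 ± 0.30. The other subunits of the Ndc80 complex rose by 2.12 (Ndc80) and 2.97 (Nuf2), Cenpe, a kinesin of the kinetochore, by 2.56, and Cenpf, a large protein of its outer layer, by 2.92.

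The mitotic kinesins move along or depolymerize spindle microtubules. Kif11 (Eg5), which pushes the spindle poles apart, measured 4.99, 6.97, 5.19 and 4.12 CPM in Control, 29.2, 35.3, 29.5, 27.8 and 23.6 in WT bleomycin and 14.5, 20.0, 31.4 and 39.1 in CB1R KO bleomycin. Kif4, which acts on chromosome arms and the central spindle, measured 3.57, 4.39, 2.75 and 2.51 CPM in Control, 14.4, 15.1, 13.7, 15.6 and 10.4 in WT bleomycin and 7.78, 8.68, 17.3 and 20.5 in CB1R KO bleomycin. In both genes CB1R KO libraries 8 and 9 lay between Control and WT bleomycin and library 11 above every WT bleomycin library. Kif11 and Kif4 rose without overlap with Control, by 2.45 ± 0.26 and 2.06 ± 0.29, and Kif15, which assists Kif11, and Kif2c (MCAK), which removes faulty attachments, rose by 2.86 and 2.66.

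Of the 6 genes of spindle assembly, Tpx2, which activates Aurka and nucleates microtubules near chromosomes, measured 4.04, 7.45, 3.71 and 2.90 CPM in Control, 34.3, 39.8, 30.9, 33.8 and 22.4 in WT bleomycin and 14.5, 18.3, 36.0 and 42.6 in CB1R KO bleomycin. Ckap2l, a protein of spindle microtubules, measured 3.39, 4.63, 3.20 and 3.35 CPM in Control, 18.2, 25.3, 16.4, 22.1 and 13.9 in WT bleomycin and 8.50, 11.8, 20.6 and 18.6 in CB1R KO bleomycin. CB1R KO libraries 8 and 9 were below every WT bleomycin library in both, and every bleomycin library was above Control. Tpx2 rose by 2.82 ± 0.35 and Ckap2l by 2.39 ± 0.26. The others were Aspm, which organizes spindle poles (2.80), Dlgap5 (HURP), which stabilizes kinetochore fibres (2.67), Nusap1 (1.94) and Hmmr (1.75), which bind spindle microtubules.

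Genes of the central spindle and cytokinesis rose by a median of 2.25. Prc1, which bundles the antiparallel microtubules of the central spindle, measured 5.17, 10.5, 5.83 and 5.35 CPM in Control, 42.6, 52.8, 40.8, 41.4 and 28.4 in WT bleomycin and 24.4, 29.7, 45.7 and 62.2 in CB1R KO bleomycin. Prc1 rose by 2.62 ± 0.30, and Control library 21 was the highest of its group. Kif20a rose by 2.66, and the centralspindlin subunits Kif23 and Racgap1 by 1.58 and 1.80. Ect2, which activates RhoA at the cleavage furrow, and Anln (anillin), the scaffold of the contractile ring, rose by 2.16 and 2.34.

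Among the genes of chromosome structure, Mki67 (Ki-67), which coats mitotic chromosomes and is the common marker of proliferating cells, measured 14.4, 21.5, 14.6 and 16.4 CPM in Control, 111, 115, 109.8, 102 and 80.0 in WT bleomycin and 53.6, 68.7, 122 and 124 in CB1R KO bleomycin. Top2a, the topoisomerase that untangles sister chromatids, measured 11.6, 16.04, 12.0 and 9.99 CPM in Control, 86.9, 102, 87.8, 93.3 and 65.5 in WT bleomycin and 40.4, 51.4, 103 and 123 in CB1R KO bleomycin. Ncapd2, a subunit of condensin I, measured 19.7, 22.2, 17.5 and 16.2 CPM in Control, 44.4, 53.6, 44.6, 47.7 and 37.5 in WT bleomycin and 27.5, 29.1, 41.9 and 61.3 in CB1R KO bleomycin. In Mki67 and Top2a the WT bleomycin libraries were several times above Control, while in Ncapd2 the separation was smaller but still without overlap. In the 3 genes CB1R KO libraries 8 and 9 were below every WT bleomycin library. Mki67 rose by 2.63 ± 0.24 (adjusted p = 1.15e-06, the lowest of the 46), Top2a by 2.81 ± 0.30 and Ncapd2 by 1.27 ± 0.21. Of the other condensin subunits, Ncapg rose by 2.37 and Smc2, which is shared by condensins I and II, by 1.49.

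The transcription factors of the list act at different times. Foxm1, which activates genes of G2 and mitosis, measured 4.52, 5.41, 5.12 and 4.70 CPM in Control, 23.9, 29.0, 20.9, 26.2 and 20.7 in WT bleomycin and 11.3, 16.2, 23.4 and 28.4 in CB1R KO bleomycin. Mybl2 (B-Myb), which acts with MuvB from late S phase, measured 3.09, 4.93, 4.10 and 3.41 CPM in Control, 6.52, 8.83, 8.06, 10.8 and 8.58 in WT bleomycin and 4.19, 4.82, 7.89 and 8.60 in CB1R KO bleomycin. For Foxm1 every bleomycin library of both genotypes was above Control, whereas for Mybl2 CB1R KO libraries 8 and 9 were within the Control range. Foxm1 rose by 2.29 ± 0.23 (adjusted p = 2.42e-06) and Mybl2 by 1.14 ± 0.23 (adjusted p = 0.0010), and Mybl2, Cenpa and Ncapd2 had the 3 smallest changes of the 46.

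**Figure D3:**
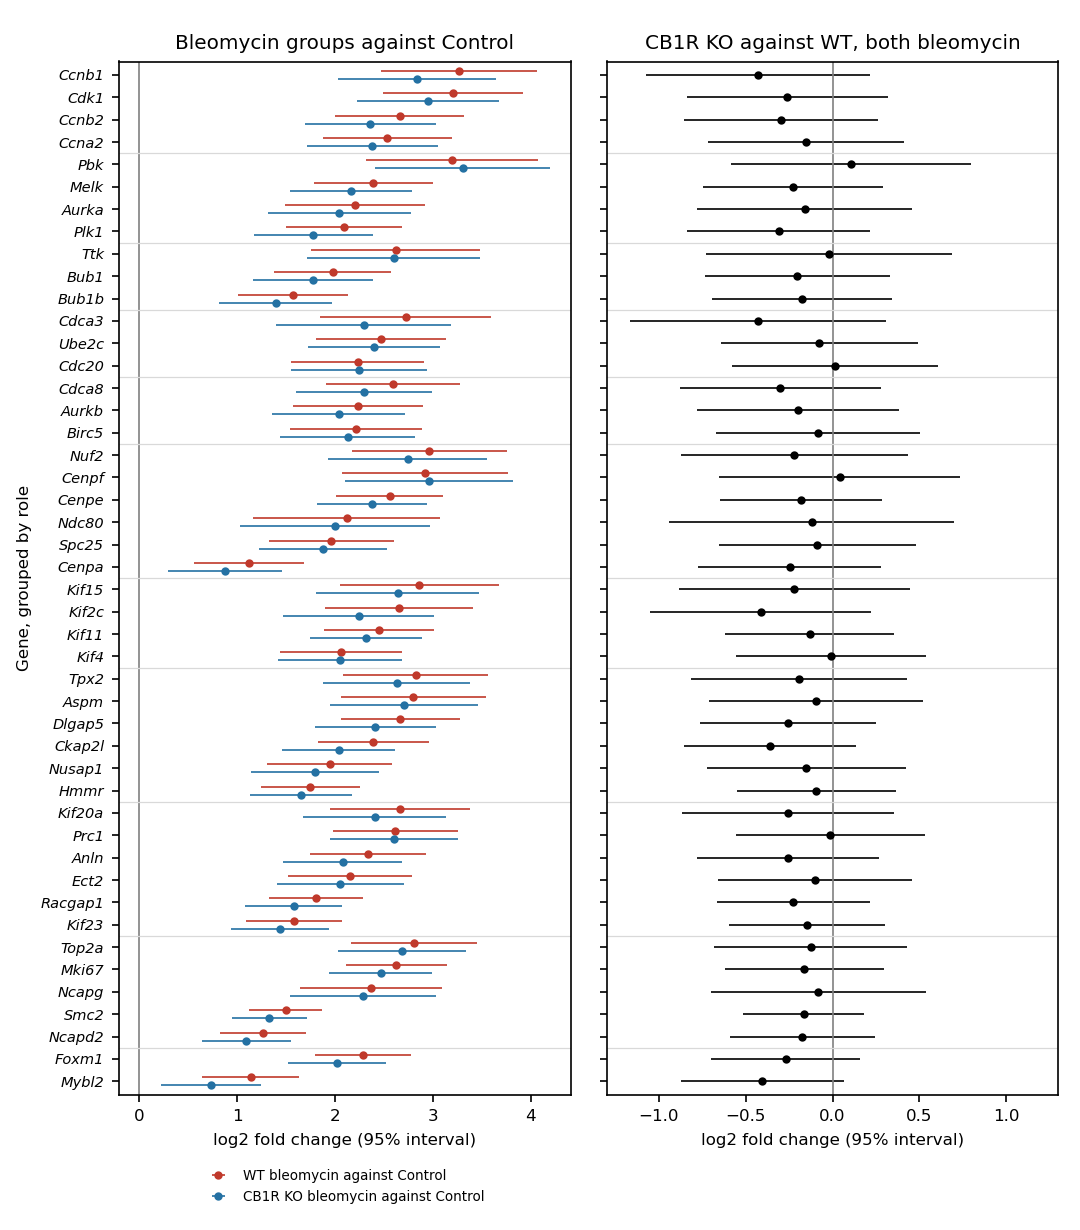
Fitted log2 fold change of each of the 46 genes with its 95% interval (x axes), grouped by role. Left, WT bleomycin and CB1R KO bleomycin against Control, where each interval lies above 0; right, CB1R KO against WT bleomycin, where each interval holds 0.

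CB1R KO and WT bleomycin lungs were compared for the level of these genes after bleomycin. Without CB1R KO mice free of bleomycin, an altered response could not be told from an earlier difference. None of the 46 genes passed an adjusted p of 0.05 in edgeR, against 0.979% of all genes tested that did, and none had an unadjusted p under 0.05, against 17.0% of all genes tested. DESeq2 on all libraries called none of the 46 and 4.22% of all genes tested. The log2 fold changes ran from -0.43 to 0.11 with a median of -0.17. Of the 46, 43 were below 0, against 7642 of all 15315 genes tested, the exceptions being Pbk, Cdc20 and Cenpf. These signs come from the same mice and are not separate observations. The lowest adjusted p was 0.370.

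The lowest unadjusted p values belonged to Mybl2, at -0.40 ± 0.22 (95% interval -0.87 to 0.07), Ckap2l, at -0.36 ± 0.23 (-0.85 to 0.14), and Ccnb1, at -0.43 ± 0.30 (-1.07 to 0.22). The highest belonged to Kif4, at -0.01 ± 0.25 (-0.55 to 0.54), Prc1, at -0.01 ± 0.26 (-0.56 to 0.53), and Cdc20, at 0.01 ± 0.28 (-0.58 to 0.61), and the sign of these 3 changed when single libraries were left out. For Mki67 the difference was -0.16 ± 0.21 (-0.62 to 0.30). The 46 intervals all held 0, and they spanned -1.16 to 0.80. In 43 genes the interval was wholly above -1, a 2-fold decrease, and for Ccnb1, Cdca3 and Kif2c it reached below -1. The fit behind these intervals gave all groups a common spread for each gene. The median SD of log2 CPM over the 46 genes was 0.70 in CB1R KO and 0.27 in WT bleomycin. The intervals may therefore be too narrow, and a 2-fold decrease is not excluded by them. Smaller differences in either direction were within the intervals.

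The CB1R KO libraries differed widely from each other in these genes. The mean log2 CPM over the 46 genes was 3.16, 3.51, 4.31 and 4.64 in CB1R KO libraries 8, 9, 10 and 11. It was 4.22, 4.48, 4.14, 4.33 and 3.88 in the WT bleomycin libraries and 1.83, 2.26, 1.79 and 1.69 in the Control libraries. CB1R KO libraries 8 and 9 thus lay between the Control and WT ranges, library 10 within the WT range and library 11 above it.

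Gene by gene, library 8 was below the lowest WT bleomycin library in 46 of the 46 genes and library 9 in 42. Library 10 was within the WT range in 38 genes and above it in 7, and library 11 was above the highest WT library in 32 and within the range in 14. These positions of single libraries were not counted over all genes tested, so whether they are particular to the 46 genes is not known. The 46 genes were measured in the same libraries and are not separate observations of a library. The median SD of log2 CPM over the 46 genes was 0.70 among the CB1R KO libraries, 0.27 among the WT bleomycin libraries and 0.31 among the Control libraries, where the medians over all genes tested were 0.17, 0.16 and 0.15. The SD was larger in CB1R KO than in WT bleomycin for 46 of the 46 genes, against 52.5% of all genes tested. An SD of log2 CPM in the CB1R KO group as large as the median of the 46 genes was reached by 3.46% of all genes tested.

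The median difference from WT bleomycin depended on which CB1R KO library was left out. It was 0.01 without library 8, -0.04 without library 9, -0.27 without library 10 and -0.46 without library 11. None of the 46 was called in any of these fits, which called 0.0583%, 0.00648%, 4.24% and 0.0194% of all genes tested in the same order, so that without libraries 8, 9 or 11 a count of 0 was near the background. Without library 11, 15 of the 46 genes (against 17.4% of all genes tested) had an unadjusted p under 0.05, and the lowest adjusted p of the 46 was 0.150. Library 11 was also the library sequenced 3.33 times as deeply as the median of the others, and after thinning its counts to the depth of the others the median difference was -0.20, with none of the 46 called (against 0.856% of all genes tested). With only the libraries whose labels are in lower case it was -0.25.

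**Figure D4:**
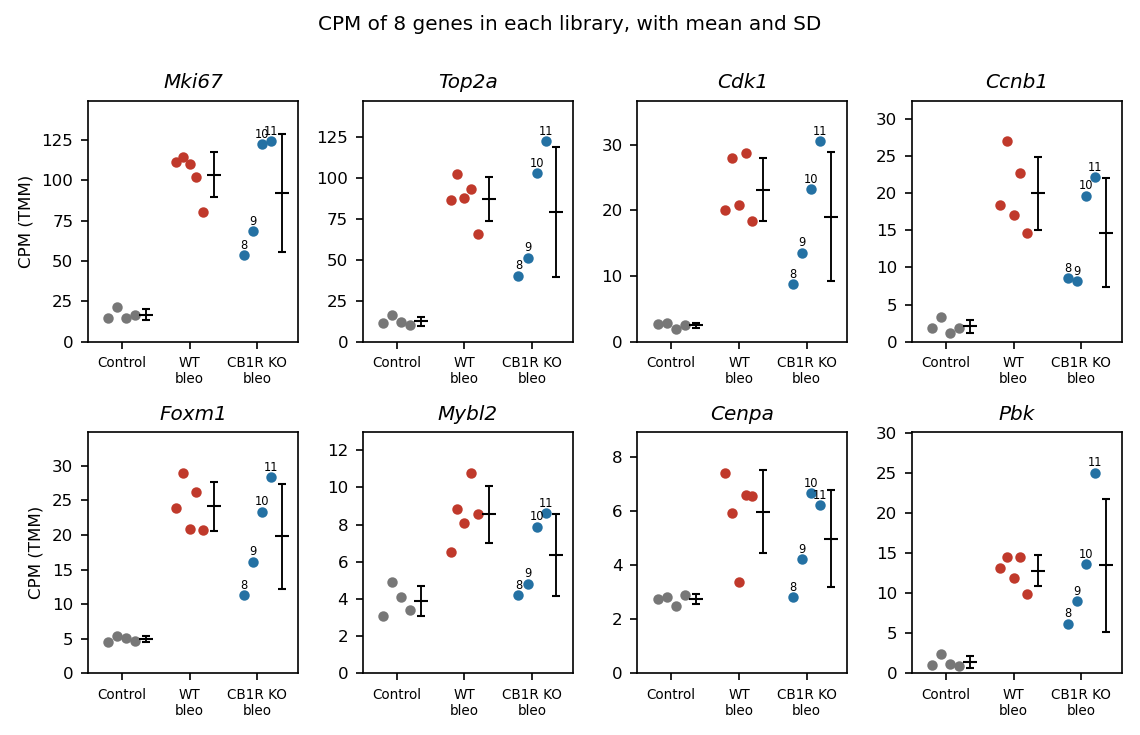
CPM (y axes, linear from 0) of 8 of the genes in each library of the 3 groups, with the mean and SD of each group in black and the CB1R KO libraries labelled by number. In each panel CB1R KO libraries 8 and 9 are below 10 and 11, and for Mki67 the group means are 16.7 CPM in Control, 103.5 in WT bleomycin and 92.2 in CB1R KO bleomycin.

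Markers of cell types also differed between the libraries, in an order that depended on the cell type. The 8 markers of fibroblasts summed to 4700, 4666, 7418 and 7151 CPM in CB1R KO libraries 8, 9, 10 and 11. They summed to 6442 to 9517 in WT bleomycin and to 1776 to 2131 in Control. In WT bleomycin 4 of the 8 were higher than in Control and 1 lower, against 25.0% and 23.9% of all genes tested. The 8 markers of monocyte-derived macrophages summed to 1846, 1378, 2206 and 1687 CPM in the same CB1R KO libraries. They summed to 2145 to 2679 in WT bleomycin and to 242 to 349 in Control, with 7 of the 8 higher in WT bleomycin (against the same 25.0%). No gene of either list was at 0 in any library. In the sum of the fibroblast markers CB1R KO libraries 8 and 9 were low and 10 and 11 high, as in the mitosis genes. A sum follows its most abundant genes. The fibroblast markers differed among themselves, with log2 fold changes from -1.26 to 3.13 in WT bleomycin against Control, so this order need not hold for each marker. The erythroid markers stood in the same order from library 8 to 11 as the mean of the mitosis genes, with sums of 2550, 3170, 3668 and 4938 CPM against 2431 to 3288 in WT bleomycin and 5451 to 6811 in Control. In the sum of the macrophage markers library 9 was lowest and 10 highest. Type II cell markers fell in WT bleomycin (6 of 7 lower, against 23.9% of all genes tested). In CB1R KO 3 of 7 were higher than in WT bleomycin, against 0.359% of all genes tested. Their sums were 18799, 21440, 13621 and 20256 CPM in CB1R KO libraries 8 to 11, against 11706 to 13382 in WT bleomycin. The part of these cell types in the results for the mitosis genes was not tested.

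Of all genes tested, 23.9% were lower and 25.0% higher in WT bleomycin than in Control. Of the other marker lists, the numbers lower were 7 of 7 for endothelial cells, 5 of 6 tested for erythroid cells, 5 of 5 tested for cardiac and striated muscle, 4 of 5 tested for neutrophils, 4 of 8 for T and NK cells and for alveolar macrophages, 2 of 5 for ciliated cells and 2 of 5 tested for adipocytes. Type I cells had 3 of 6 lower and 1 higher, and B and plasma cells 4 of 6 tested lower and 1 higher. Between CB1R KO and WT bleomycin, 2 T and NK cell markers and 1 endothelial marker were higher, against 0.359% of all genes tested. No marker of the remaining lists was called by edgeR. T and NK cell markers summed to 80.2 to 118 CPM in Control, 43.7 to 65.6 in WT bleomycin and 70.1 to 76.7 in CB1R KO bleomycin, and endothelial markers to 3914 to 4595, 2470 to 2847 and 2772 to 3236. Their part in the results was likewise not tested.

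Compared with Control, all 46 genes were higher in CB1R KO bleomycin lungs, against 19.0% of all genes tested, with a median log2 fold change of 2.24 and a range from 0.73 (Mybl2) to 3.31 (Pbk). This comparison and the one of WT bleomycin with Control share the 4 Control libraries. In 44 of the 46 genes every CB1R KO library was above every Control library, against 17.7% of all genes tested. The exceptions were Cenpa, where library 8 was within the Control range, and Mybl2, where libraries 8 and 9 were below Control library 21. Cenpa rose by 0.87 ± 0.27 (adjusted p = 0.0218) and Mybl2 by 0.73 ± 0.24 (adjusted p = 0.0281), and these were also the genes that lost the call in some of the alternative fits. For Mki67 the change was 2.47 ± 0.25, for Cdk1 2.95 ± 0.34 and for Foxm1 2.02 ± 0.23.

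Other genes of the cell cycle were described by lists written from gene symbols, also with earlier results of these data known. A list of 58 further mitosis genes, none of them among the 46, had a median of 2.03 in WT bleomycin. Of these, 51 were higher (against 25.0% of all genes tested) and 0 lower (against 23.9%). In CB1R KO bleomycin 51 of them were higher, against 19.0% of all genes tested, with a median of 1.86. The largest change was that of Psrc1, a spindle protein, at 3.86 ± 0.28, and the lowest that of Pttg1 (securin), at -0.43 ± 0.39 (adjusted p = 0.386). All 29 genes of the G1/S transition and DNA replication were higher in WT bleomycin, against the same 25.0% of all genes tested. Their median was smaller, at 1.12, with a range from 0.39 for the helicase subunit Mcm4 to 2.33 for the transcription factor E2f8. In CB1R KO bleomycin 26 of the 29 were higher than Control, against 19.0% of all genes tested, with a median of 0.85. Between CB1R KO and WT bleomycin none of the 87 genes of these lists was called, against 0.979% of all genes tested. An unadjusted p under 0.05 was found for 8 of the 87, against 17.0% of all genes tested, and the list medians were -0.15 and -0.22.

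The promoter motif differed between these lists as well. TTTGAA was found in 24 of the 46 further mitosis genes with a promoter sequence (52.2%) but in 4 of 25 genes of G1/S and DNA replication, which is near the 20.2% of all genes. TTTCCCGC or TTTGGCGC, common forms of the site of E2F factors, were found in 8 of the 25 replication genes (32.0%), 3 of the 39 genes described here (7.69%) and 1.80% of all genes. CCAAT was found in 64.0% of the replication genes.

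Of the 6 cyclins and kinases of G1, which act upstream of DNA replication, 4 rose in WT bleomycin, against 25.0% of all genes tested. The median of the 6 was 0.35. In WT bleomycin, Ccnd1 (cyclin D1) rose by 0.88 ± 0.07, Cdk4 by 0.51 ± 0.11, Ccnd2 by 0.40 ± 0.09 and Ccnd3 by 0.29 ± 0.06. Cdk2 and Cdk6 did not pass the test, at 0.22 ± 0.10 and 0.08 ± 0.07. Ccnd1 measured 246, 234, 265 and 209.8 CPM in Control, 414, 433, 442, 478 and 431 in WT bleomycin and 430.2, 387, 437 and 391 in CB1R KO bleomycin. Its WT and CB1R KO bleomycin libraries all lay above Control and overlapped each other, and in CB1R KO bleomycin against Control Ccnd1, Ccnd2 and Ccnd3 were higher while Cdk4, at 0.27 ± 0.11, was not called.

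Inhibitors of the cyclin-dependent kinases moved in both directions. Cdkn1a (p21), an inhibitor induced by p53 after DNA damage, measured 48.7, 40.1, 40.5 and 85.2 CPM in Control, 267, 263, 304, 277 and 293 in WT bleomycin and 240.2, 277, 249.7 and 235 in CB1R KO bleomycin. All bleomycin libraries of both genotypes were above Control, and Cdkn1a rose by 2.39 ± 0.18 in WT bleomycin (adjusted p = 2.69e-07), the highest of the 10 inhibitors and pocket proteins. Cdkn2a, which encodes p16 and Arf, measured 0.654, 0.421, 0.768 and 1.42 CPM in Control, 3.10, 2.97, 4.06, 4.64 and 3.39 in WT bleomycin and 1.64, 1.69, 2.49 and 3.64 in CB1R KO bleomycin. It rose by 2.15 ± 0.34 in WT bleomycin, and in the CB1R KO group library 11 was highest and library 8 lowest. Cdkn2b, Cdkn2c and Cdkn2d, inhibitors of Cdk4 and Cdk6, rose by 0.67, 0.58 and 0.35, and the pocket protein Rbl1 (p107) by 0.46.

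Cdkn1b (p27), an inhibitor that is high in resting cells, measured 143, 141, 131 and 138 CPM in Control, 91.7, 86.1, 77.1, 72.7 and 92.4 in WT bleomycin and 104.8, 106, 95.4 and 94.5 in CB1R KO bleomycin. It fell by 0.72 ± 0.07 on the log2 scale in WT bleomycin (adjusted p = 2.90e-06), and every bleomycin library of both genotypes was below every Control library. Cdkn1c (p57) and Rbl2 (p130), the pocket protein of resting cells, fell by 0.59 and 0.45, and Rb1 did not pass the test, at 0.02 ± 0.09. In CB1R KO bleomycin against Control, Cdkn1a, Cdkn2a, Cdkn2b, Cdkn2c and Rbl1 were higher and Cdkn1b, Cdkn1c and Rbl2 lower, and Cdkn2d was not called. Between CB1R KO and WT bleomycin none of these 16 regulators of G1 was called, against 0.979% of all genes tested, so the count was near the background.

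**Figure D5:**
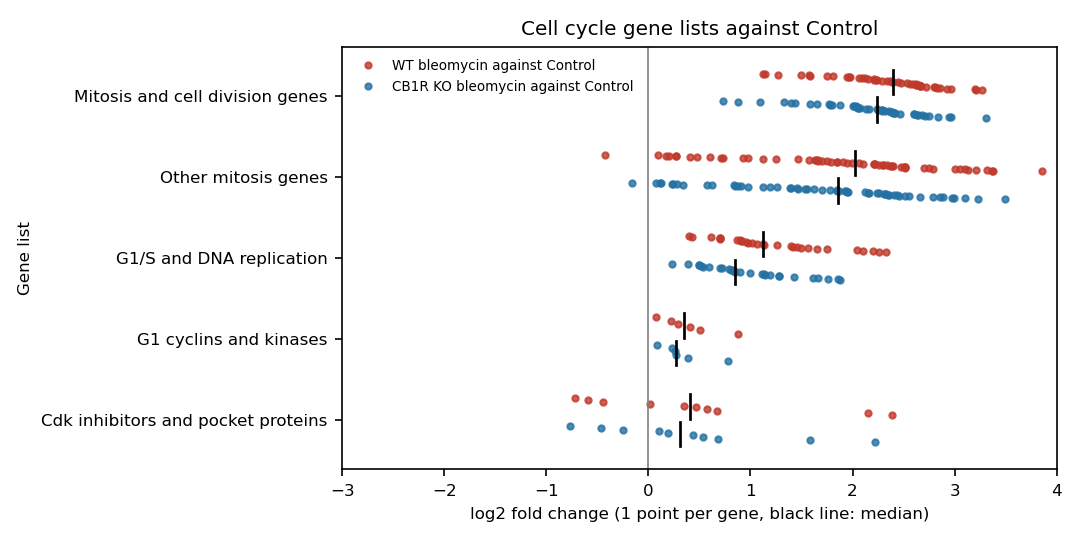
Log2 fold change against Control (x axis) of each gene of the 5 cell cycle lists (y axis), in WT bleomycin (red) and CB1R KO bleomycin (blue), with the median of each list in black. In WT bleomycin the medians fall from 2.39 for the 46 mitosis genes over 1.12 for G1/S and DNA replication to 0.35 for the G1 cyclins and kinases, and the inhibitors lie on both sides of 0.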

How the data were processed

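Poly(A) RNA of the lower right lung lobe was sequenced by the authors (NEBNext Ultra II, 2 x 150 bases, HiSeq). Reads were quantified with Kallisto (GRCm39 in the submitters' notes), and the authors deposited estimated counts, not normalized, and TPM values, scaled for transcript length and library total, both summed over protein-coding transcripts per gene symbol. Of the count values 70.5% were not whole. The TPM table had 1 column of no sample, which was not used, and the files of single samples repeat the same values and were not used.

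Estimated counts were rounded, filtered with filterByExpr and tested in edgeR 4.0.16 (R 4.3.3) with TMM normalization, the quasi-likelihood test, 1 coefficient per group over the 13 libraries, and Benjamini-Hochberg adjustment over 15315 genes, with calls at an adjusted p under 0.05. CPM are scaled by TMM, with a prior count of 2 for log2 values. The code was tested on simulated data. Each library was taken as 1 mouse. The labels of WT bleomycin libraries 4 and 4-B2 share the number 4, and they do not say whether these are separate mice. The depth of 12 libraries was close, and library 11 of CB1R KO was 3.33 times their median. Control replicate 26 and WT bleomycin replicates 4-B2 and 7 have labels written in another style, which may or may not mark a batch.

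The 46 genes, the role groups, the pathway lists and the marker lists were chosen with earlier results of these data known. Values in every library are given for the gene with the highest mean TPM over the 13 libraries in each role, for 6 regulators and proliferation markers, and for the 3 largest and smallest changes and the 3 lowest and highest p values. Motif shares used 1 value per gene symbol, and the E2F motifs were added after the data were seen. RefSeq promoters are of another build than the authors' reference, so no position was joined to the counts. Alternatives were the count filter, RLE and upper-quartile normalization, DESeq2 1.42.0, limma 3.58.1 on log2 TPM, edgeR on 2 groups, the label style, each library left out and library 11 thinned.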

Additional observations from a re-analysis of the deposited data

Results flagged for a closer look

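In the Control group, library 21 stood apart from the other 3 libraries in 3 of the 19 genes given with a value in every library. It held 2.46 CPM of Pbk where the others held 0.902 to 1.15, 10.5 CPM of Prc1 where the others held 5.17 to 5.83, and 4.63 CPM of Ckap2l where the others held 3.20 to 3.39. These were the gaps above Dixon's 95% critical value among 60 sets of values examined (19 genes and their common mean in 3 groups), and chance alone marks about 1 in 20. Library 21 was the highest Control library in 36 of the 46 genes, a position that was not counted over all genes tested. Without it the median log2 fold change of WT bleomycin against Control was 2.56 in place of 2.39, and all 46 genes stayed higher.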

How the results depend on the processing

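In WT bleomycin against Control, the number of genes called higher was 46 in every alternative other than the count minimum of 10 per library, which left 44 genes, all 44 called, and the median log2 fold change stayed between 1.83 and 2.56. In CB1R KO bleomycin against Control, 44 to 46 genes were called higher, the calls lost being those of Cenpa and Mybl2, and the median was 1.56 to 2.44. The lowest medians, 1.83 and 1.56, were those of limma on log2(TPM + 1), where the pseudocount compresses low genes by construction. When each library was left out in turn, these medians ran from 2.32 to 2.56 and from 1.89 to 2.44. For CB1R KO against WT bleomycin, 0 genes were called in all 25 alternatives, with medians from -0.46 to 0.01. These fits called from 0.00648% (without CB1R KO library 9) to 4.31% (DESeq2 on 2 groups) of all genes tested. A count of 0 was therefore near the background in most of them. Among the libraries with lower-case labels the medians were 2.38, -0.25 and 2.13, and with the label style as a term 2.45, -0.26 and 2.17, in the order of the comparisons above with CB1R KO against WT second. Small differences between CB1R KO and WT changed sign: Cdc20 was -0.00267 and -0.00185 in DESeq2 on all libraries and on 2 groups, -0.13 and -0.14 in limma with pseudocounts of 1 and 0.1, -0.076 with the label style as a term and -0.056 with lower-case labels only, and Kif4 was 0.0016 with no filter. With each library left out, Cdc20 ran from -0.39 to 0.26, Kif4 from -0.29 to 0.18, Prc1 from -0.31 to 0.16 and Mki67 from -0.34 to 0.025. The cause was not tested. No paired analysis was possible because the groups share no replicate number. Counts in Control limit the precision of the lowest genes, and the spread among 4 CB1R KO mice limits what the comparison with WT can show.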

Other observations

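Of the 58 further mitosis genes, 7 did not pass the test between WT bleomycin and Control. They were Pttg1 (-0.43), Cdc25b (0.09), Hjurp (0.18), Ncapd3 (0.27), Smc4 (0.27), Cenpu (0.41) and Cenpw (0.73), named here after their values were seen, with log2 fold changes in parentheses. Smc4 and Ncapd3 encode condensin subunits, as do Smc2, Ncapg and Ncapd2 of the 46 genes, which rose by 1.49, 2.37 and 1.27. Hjurp encodes the chaperone of Cenpa, and Cenpa itself had the smallest change of the 46 genes. The difference between these genes and their partners was not tested.

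The 29 genes of G1/S and DNA replication summed to 565, 569, 817 and 871 CPM in CB1R KO libraries 8, 9, 10 and 11, to 743 to 924 CPM in WT bleomycin and to 382 to 456 CPM in Control. Libraries 8 and 9 were thus between the Control and WT ranges in these genes too. The 6 G1 cyclins and kinases summed to 1034, 945, 1029.99 and 921 CPM in the same libraries, where WT bleomycin held 996 to 1079 CPM.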
